A study of Mus musculus with 6 samples.

Results

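The genes described here encode nuclear subunits of the mitochondrial respiratory chain and of ATP synthase, with a few of the factors that assemble complex I. They were found by symbol in the annotation of a mouse expression microarray, as probe sets with a single gene symbol that begins with Nduf, Uqcr or Atp5, that begins with Cox and a digit from 4 to 8, or that is Sdha, Sdhb, Sdhc, Sdhd, Cyc1 or Cycs. The rule took 184 probe sets of 92 genes, out of 18193 genes with a single symbol on the array, and each gene was read from the brightest of its probe sets. Of the 92 genes, 90 passed the brightness filter and were tested: 42 of complex I, 4 of complex II, 10 of complex III with cytochrome c, 17 of the 19 of complex IV and 17 of complex V. Another 10 probe sets, annotated with such a gene and others together, were not used.

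The arrays measured CD8 T cells sorted from MCA-205 tumours, a transplanted fibrosarcoma line, grown in male C57BL/6 mice in which green fluorescent protein reports the T-box transcription factor gene Eomes. GFP-positive (Eomes+) cells were compared with GFP-negative (Eomes-) cells, with 3 arrays each. The mice of both groups carried the reporter and had the same treatment, begun at a tumour size of 50 to 80 mm2: 250 ug of aOX40 (an antibody to a costimulatory receptor) on days 12 and 16, and, on days 12, 14 and 16, 200 ug of aCTLA-4 (an antibody to an inhibitory receptor), with tumours sorted on day 19. The series describes 3 independent experiments but ties no array to an animal and gives no age, so a p-value here reflects only how far these samples spread, which may be technical.

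Complex I takes electrons from NADH and complex II takes them from succinate, and both pass them to ubiquinone. Complex III hands them to cytochrome c and complex IV hands them to oxygen, and complex V makes ATP from the proton gradient that complexes I, III and IV build across the inner mitochondrial membrane. Naive and memory T cells are known to rely on this chain, activated effector T cells run glycolysis beside it, and CD8 T cells in tumours are known to lose mitochondrial function as they become exhausted.

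Promoters are shown first, because several short motifs recur in them. RefSeq promoter windows of build GRCm38.p6, from 250 bases before to 50 bases after a gene's start, were matched for 75 of the 92 genes, and 6 motifs were searched on both strands. Letters at the heart of the motif of NRF1, a transcription factor known for its action on respiratory genes, GCATGCGC, occurred in 12 of the 75 genes (16%), against 3.94% of 17492 protein-coding genes. The motif CCGGAAG of ETS factors such as GABP occurred in 19 genes (25.3%, against 12.9%), and the YY1 motif AAGATGGC occurred in 10 genes (13.3%, against 3.57%). The cyclic AMP response element TGACGTCA occurred in 4 genes (5.33%, against 2.54%). The general promoter motifs were about as frequent as elsewhere, with CCAAT in 33 genes (44%, against 42.3%) and TATAAA in 8 genes (10.7%, against 14.8%). These are counts of letters, given without a test, and a match is not a site shown to be bound.

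The windows of 5 genes follow, 5′ to 3′ on the gene's own strand, with matches to GCATGCGC, CCGGAAG, AAGATGGC and TGACGTCA on either strand in capitals. The NRF1 letters overlap on both strands in Cox6a1 and Atp5g2, which gives a longer run there. Cycs encodes cytochrome c (chr6:50566520-50566819, minus strand), Sdhb the iron-sulphur subunit of complex II (chr4:140961021-140961320, plus strand), Cox6a1 a subunit of complex IV (chr5:115348909-115349208, minus strand) and Atp5g2 a c-ring subunit of complex V (chr15:102670998-102671297, minus strand). Those 4 show the NRF1 motif in genes of different complexes, and Ndufb11, a complex I gene (chrX:20617570-20617869, minus strand), had the smallest p-value of the 90 genes and holds none of these motifs in its window.
Cycs: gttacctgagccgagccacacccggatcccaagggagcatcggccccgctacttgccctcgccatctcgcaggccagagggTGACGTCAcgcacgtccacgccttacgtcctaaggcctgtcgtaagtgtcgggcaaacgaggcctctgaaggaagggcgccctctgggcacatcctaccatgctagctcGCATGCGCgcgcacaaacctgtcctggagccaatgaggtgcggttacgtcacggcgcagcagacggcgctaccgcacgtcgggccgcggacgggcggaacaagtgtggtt
Sdhb: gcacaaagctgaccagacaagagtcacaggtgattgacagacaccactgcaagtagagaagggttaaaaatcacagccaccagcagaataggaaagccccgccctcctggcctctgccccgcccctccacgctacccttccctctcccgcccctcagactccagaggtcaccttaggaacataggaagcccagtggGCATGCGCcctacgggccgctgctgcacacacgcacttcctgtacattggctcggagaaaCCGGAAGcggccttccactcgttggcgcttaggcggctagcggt
Cox6a1: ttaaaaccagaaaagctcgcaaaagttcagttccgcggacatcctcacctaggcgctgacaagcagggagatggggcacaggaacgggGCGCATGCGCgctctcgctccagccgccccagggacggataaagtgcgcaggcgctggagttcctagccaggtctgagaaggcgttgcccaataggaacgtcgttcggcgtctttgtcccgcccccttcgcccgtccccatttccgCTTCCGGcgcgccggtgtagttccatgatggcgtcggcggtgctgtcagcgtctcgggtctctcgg
Atp5g2: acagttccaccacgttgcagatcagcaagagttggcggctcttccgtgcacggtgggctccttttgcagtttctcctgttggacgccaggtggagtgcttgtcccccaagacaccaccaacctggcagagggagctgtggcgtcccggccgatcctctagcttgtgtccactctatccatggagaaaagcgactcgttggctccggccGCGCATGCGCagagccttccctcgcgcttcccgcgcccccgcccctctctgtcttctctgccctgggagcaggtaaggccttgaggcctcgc
Ndufb11: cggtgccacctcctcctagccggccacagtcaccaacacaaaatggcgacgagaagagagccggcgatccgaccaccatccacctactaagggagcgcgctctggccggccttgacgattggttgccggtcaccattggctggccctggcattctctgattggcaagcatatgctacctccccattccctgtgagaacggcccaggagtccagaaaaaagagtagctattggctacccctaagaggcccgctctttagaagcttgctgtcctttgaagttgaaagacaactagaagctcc

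The values are the authors' deposited log2 signals. A difference is the Eomes+ mean minus the Eomes- mean on that scale, fitted with limma over the 12571 genes that passed the filter. Eomes itself, the check of the sort, had 10.38, 9.86 and 8.38 log2 in Eomes+ cells, against 6.85, 6.89 and 5.42 in Eomes- cells (difference 3.15, SE 0.64, unadjusted p = 0.00205; limma adjusted p = 1.00). Its groups did not overlap, although the limma test over all genes did not call it. The mean of 7 tested T cell markers, of 9 listed, was 12.83, 12.62 and 11.65 log2 in Eomes+ cells, against 13.01, 13.02 and 11.95 in Eomes- cells. All 7 had a lower mean in Eomes+ cells, with 0 at an unadjusted p under 0.05. Markers of other cells were also present. The mean of 12 macrophage and monocyte markers was 8.63, 9.99 and 10.97 log2 in Eomes+ cells, against 8.15, 9.21 and 10.84 in Eomes- cells, and that of 12 tumour and fibroblast markers was 9.99, 11.71 and 12.40 against 9.89, 10.96 and 12.55. In both fractions replicate 1 was lowest and replicate 3 highest for these non-T-cell markers, and 11 of 12 genes of each list had a higher mean in Eomes+ cells, with 0 at an unadjusted p under 0.05. The log2 ratio of the 3′ to the 5′ Gapdh probe sets, a sign of RNA quality, was 1.74 ± 0.17 in Eomes+ cells and 1.24 ± 0.26 in Eomes- cells (SD, n = 3 each; p = 0.1 in a two-sided exact permutation test, which cannot give less with 3 against 3 arrays). In such bulk samples fewer cells of a type and less RNA per cell cannot be told apart, and the part of RNA quality in the results below was not tested.

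Respiratory chain genes had close to the same signal in Eomes+ and Eomes- cells. Of the 90 genes, 46 had a higher and 44 a lower mean in Eomes+ cells, where 47.4% of all genes tested were higher. Their median difference was 0.0049 log2, against -0.016 over all genes tested, with quartiles of -0.14 and 0.096. By complex, the median difference was 0.0076 log2 for complex I, -0.011 for complex II, -0.064 for complex III with cytochrome c, 0.0074 for complex IV and -0.016 for complex V. After Benjamini-Hochberg adjustment limma called 0 of the 90 genes (adjusted p = 1.00 for each), and it called 0% of all genes tested. At an unadjusted p under 0.05 the count was again 0 of 90, where 3.25% of all genes tested passed (1.22% higher and 2.04% lower in Eomes+ cells), and the smallest p of the 90 was 0.0577. A difference of at least 2-fold was reached by Ndufb4 alone, and by 1.82% of all genes tested. The Ndufb4 value moved when single arrays were left out, and little when both arrays of a replicate number were.

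The intervals show how large a difference the 6 arrays still allow in a fit that does not use the replicate numbers. The 95% interval lay within 1 log2 either way, a 2-fold difference, for 81 of the 90 genes (90%), against 54.6% of all genes tested. It lay within 0.5 log2 either way for 41 genes (45.6%, against 6.25%). Respiratory chain genes are bright on these arrays, and the comparison was repeated at a mean signal of at least 10 log2, a level set after the values were seen. There the interval lay within 0.5 log2 for 58.6% of 70 respiratory chain genes and for 22.8% of 2523 other genes, with a median SE of 0.15 against 0.22 log2. This does not match the sets on brightness: the median signal was still 12.01 log2 for the respiratory chain genes and 10.86 for the others. For Ndufb4, Ndufaf1, Ndufaf2, Ndufaf3, Ndufaf6, Cox7c, Cox7a1, Atp5g1 and Atp5g2 the interval reached past 1 log2, so for these 9 genes a 2-fold difference lies within the interval.

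**Figure D1:**
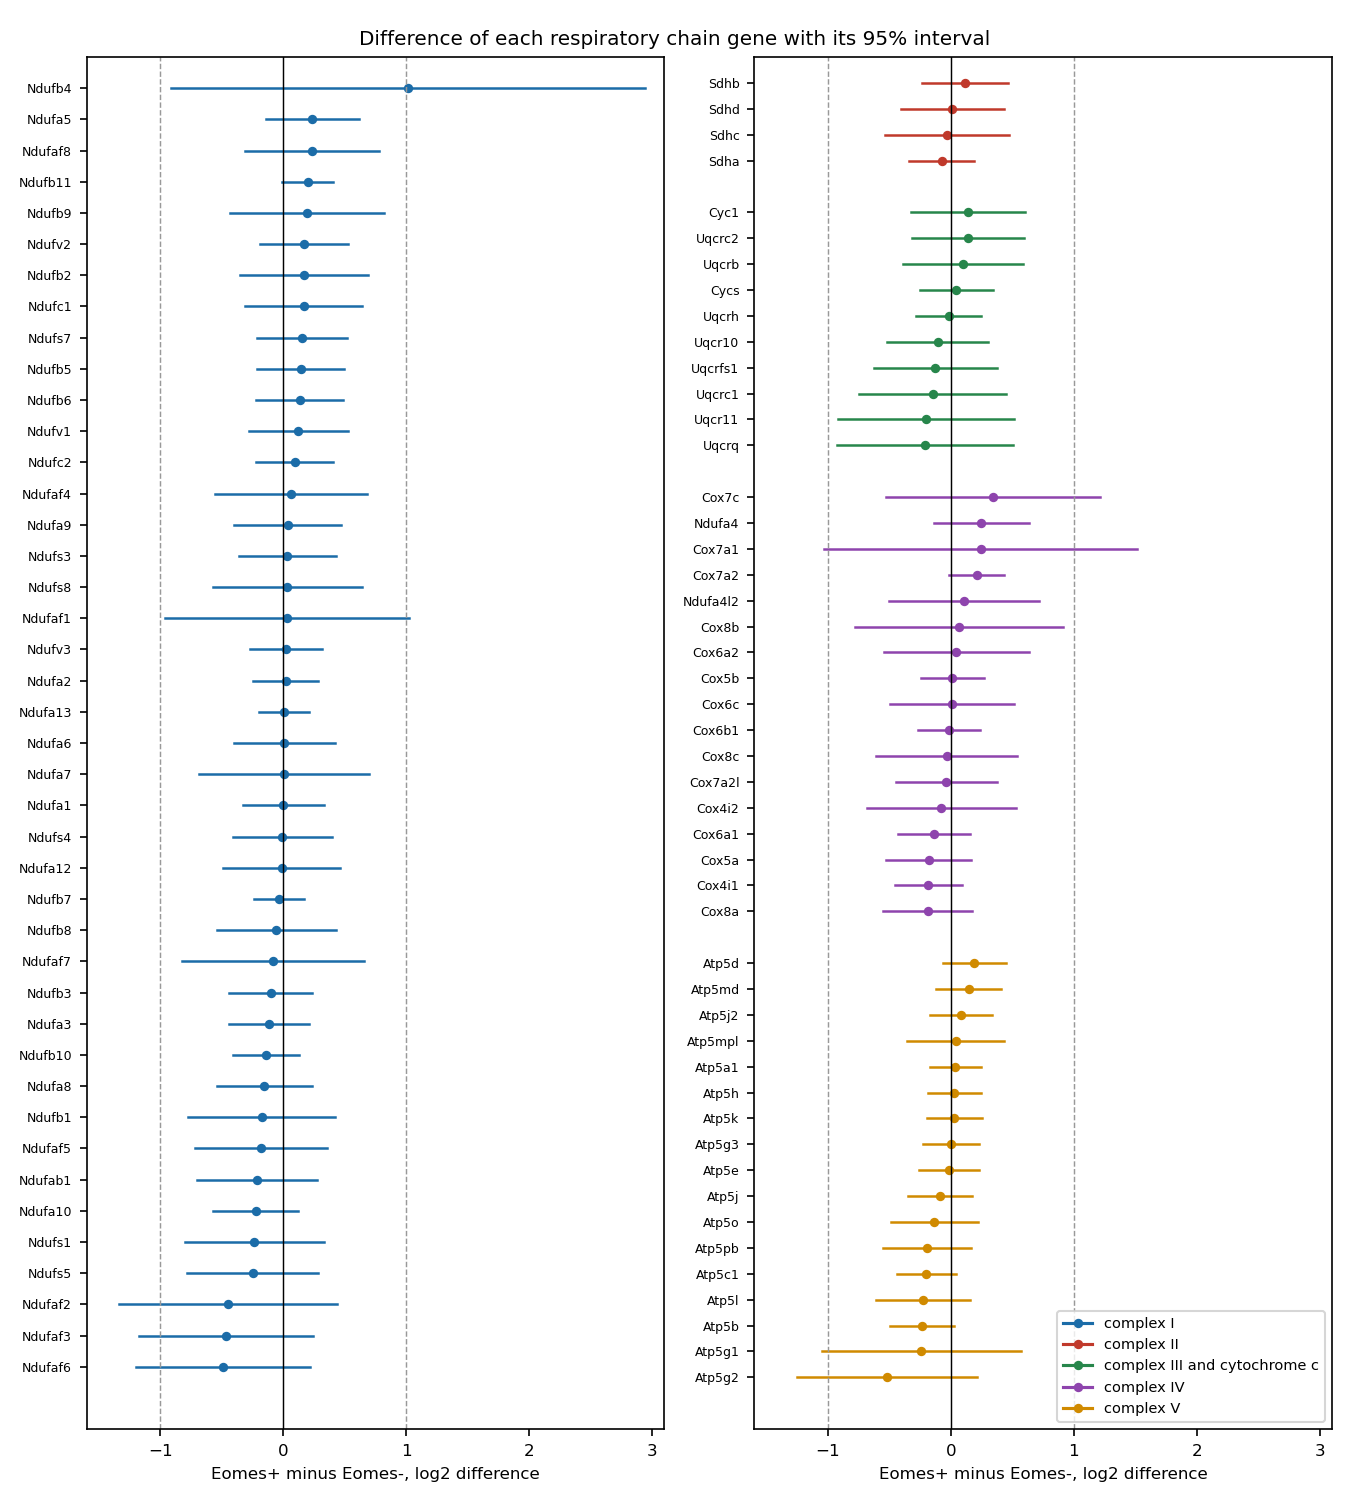
Log2 difference, Eomes+ minus Eomes-, of each of the 90 tested respiratory chain genes (points, by complex) with its 95% interval from limma (lines). 81 of the 90 intervals lie within 1 log2 either way, and Ndufb4 has the widest.

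**Figure D2:**
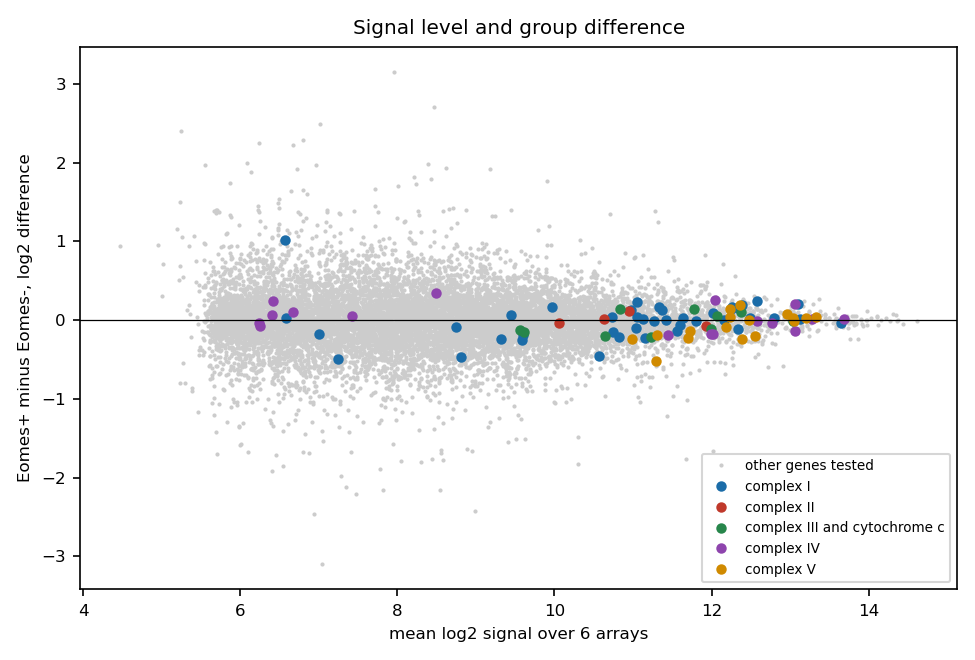
Mean log2 signal over 6 arrays (horizontal axis) against the log2 difference, Eomes+ minus Eomes- (vertical axis), for 12571 tested genes and the 90 respiratory chain genes among them. Apart from Ndufb4 at 1.02 log2, the respiratory chain genes lie between -0.52 and 0.35 log2.

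The groups did not overlap for 10 of the 90 genes (11.1%), with Eomes+ higher for 4 and lower for 6, where 7.71% of all genes tested did not overlap (3.05% higher, 4.66% lower). The higher genes were Ndufb11, Cox7a2, Atp5d and Atp5md, and the lower ones Ndufa10, Ndufb10, Ndufaf6, Cox4i1, Atp5b and Atp5c1. None of these genes differed by more than 0.5 log2. Leaving out an array makes it easier for any gene to separate, and the count moved with the array left out. Without Eomes- replicate 1 it was 27 genes, or 30% (5 higher, 22 lower), against 14.4% of all genes tested. Without both replicate 1 arrays it was 39, or 43.3% (12 higher, 27 lower), against 26.3%. Without Eomes+ replicate 1, 2 or 3 it was 19, 16 or 20 genes (21.1%, 17.8% or 22.2%), against 18.7%, 14.5% or 17.9% of all genes. It was 11 without Eomes- replicate 2 (12.2%, against 11.8% of all genes) and 18 without Eomes- replicate 3 (20%, against 22.8%). Without both replicate 2 arrays it was 17 (18.9%, against 19.6%), and without both replicate 3 arrays 29 (32.2%, against 34.3%).

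Complex I consists of catalytic core subunits and many accessory subunits, and dedicated factors assemble it. Of the 6 tested core genes 5 had a higher mean in Eomes+ cells (median difference 0.078 log2), of 28 accessory genes 15 were higher (median 0.0066) and of 8 assembly factor genes 3 were higher (median -0.13). Ndufv1, which encodes the subunit that binds NADH and was chosen after its values were seen, had 11.19, 11.45 and 11.67 log2 in Eomes+ cells, against 11.24, 11.24 and 11.45 in Eomes- cells (difference 0.12, SE 0.17). Its groups overlapped. Ndufb11, an accessory subunit of the membrane arm, had 13.19, 13.22 and 13.18 log2 in Eomes+ cells, against 12.90, 13.07 and 13.01 in Eomes- cells (difference 0.20, SE 0.09, unadjusted p = 0.0577; 95% interval -0.0088 to 0.41 log2). The Eomes+ arrays were all higher, by less than the interval can tell from 0, and its other passing probe sets differed by 0.12 and -0.07 log2. Ndufa10, another accessory subunit, had 11.16, 11.04 and 10.93 log2 in Eomes+ cells, against 11.20, 11.42 and 11.19 in Eomes- cells (difference -0.23, SE 0.14, unadjusted p = 0.164). The Eomes+ arrays were all lower. Ndufa5, an accessory subunit of the matrix arm, had 12.65, 12.82 and 12.62 log2 in Eomes+ cells, against 12.31, 12.30 and 12.77 in Eomes- cells (difference 0.24, SE 0.16, unadjusted p = 0.178). Here Eomes- replicate 3 lay among the Eomes+ arrays.

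Ndufb4, an accessory subunit of the membrane arm, had the largest difference and the largest spread of the 90 genes, with 7.64, 7.88 and 5.72 log2 in Eomes+ cells, against 6.76, 6.83 and 4.61 in Eomes- cells (difference 1.02, SE 0.80, unadjusted p = 0.25; 95% interval -0.91 to 2.94 log2). Replicate 3 was the lowest array in both fractions, and on the Eomes- side it lay below the filter level. Leaving out Eomes- replicate 3 gave a difference of 0.29 log2, leaving out Eomes+ replicate 3 gave 1.69 and leaving out Eomes+ replicate 2 gave 0.62. Without both arrays of replicate 1, 2 or 3 the difference was 1.08, 0.997 or 0.965 log2. The assembly factor gene Ndufaf6 had 7.25, 7.25 and 6.51 log2 in Eomes+ cells, against 7.64, 7.33 and 7.51 in Eomes- cells (difference -0.49, SE 0.29, unadjusted p = 0.143; 95% interval -1.20 to 0.22 log2). All Eomes+ arrays were lower, and without Eomes+ replicate 3, which lay apart from the other Eomes+ arrays, the difference was -0.24 log2. Ndufaf3, another assembly factor gene, had 8.28, 8.42 and 9.02 log2 in Eomes+ cells, against 9.06, 9.33 and 8.72 in Eomes- cells (difference -0.46, SE 0.29, unadjusted p = 0.162). Its groups overlapped through Eomes+ replicate 3 and Eomes- replicate 3, and the difference was -0.84 log2 without that pair of arrays and -0.24 without both replicate 2 arrays.

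Complex II, succinate dehydrogenase, is shared between the citrate cycle and the respiratory chain, and the genes of its 4 subunits had differences close to 0. Sdha, the flavoprotein subunit that oxidises succinate, had 11.85, 11.92 and 11.91 log2 in Eomes+ cells, against 12.06, 11.91 and 11.94 in Eomes- cells (difference -0.075, SE 0.11, unadjusted p = 0.515). Sdhb, the iron-sulphur subunit whose promoter is printed above, had 10.87, 11.06 and 11.08 log2 in Eomes+ cells, against 10.80, 10.87 and 11.01 in Eomes- cells (difference 0.11, SE 0.15, unadjusted p = 0.464). For both catalytic subunits the groups overlapped. The membrane anchor gene Sdhc had 10.35, 10.04 and 9.75 log2 in Eomes+ cells, against 10.11, 9.97 and 10.16 in Eomes- cells (difference -0.034, SE 0.21, unadjusted p = 0.877). The other anchor gene, Sdhd, had 10.69, 10.59 and 10.61 log2 in Eomes+ cells, against 10.88, 10.56 and 10.42 in Eomes- cells (difference 0.012, SE 0.18, unadjusted p = 0.948). The signs of Sdha, Sdhc and Sdhd changed under some choices of probe set, scaling or array weights, and the intervals of all 4 genes lay within 1 log2 either way.

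In complex III, 4 of 10 genes with cytochrome c included had a higher mean in Eomes+ cells, and the groups overlapped for all 10. Cyc1, the cytochrome c1 subunit, had 10.80, 10.85 and 11.07 log2 in Eomes+ cells, against 10.64, 10.57 and 11.09 in Eomes- cells (difference 0.14, SE 0.19, unadjusted p = 0.489). Cycs, the mobile electron carrier that also triggers apoptosis when it leaves mitochondria, had 12.14, 12.01 and 12.11 log2 in Eomes+ cells, against 11.87, 12.14 and 12.11 in Eomes- cells (difference 0.045, SE 0.12, unadjusted p = 0.725; 95% interval -0.25 to 0.34 log2). Eomes- replicate 1 was the lowest array for Cycs, and the other 5 arrays lay within a narrow band. Uqcrc2, a core subunit, had 12.18, 11.81 and 11.55 log2 in Eomes+ cells, against 11.78, 11.80 and 11.53 in Eomes- cells (difference 0.14, SE 0.19, unadjusted p = 0.487). The small accessory subunit Uqcrq had 10.64, 11.30 and 11.44 log2 in Eomes+ cells, against 10.84, 11.55 and 11.62 in Eomes- cells (difference -0.21, SE 0.30, unadjusted p = 0.505), and Uqcr11 had 10.24, 10.52 and 10.86 log2 in Eomes+ cells, against 10.21, 10.83 and 11.19 in Eomes- cells (difference -0.20, SE 0.30, unadjusted p = 0.517). For Uqcrq and Uqcr11 replicate 1 was the lowest array in both fractions, and the spread among replicates was larger than the difference between the fractions. Without both arrays of replicate 1, 2 or 3 the difference was -0.22, -0.19 or -0.23 log2 for Uqcrq. For Uqcr11 it was -0.32, -0.15 or -0.14 log2.

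Complex IV, cytochrome c oxidase, has subunits with a common isoform and isoforms known from particular tissues or from low oxygen. Of 10 common isoform genes 5 had a higher mean in Eomes+ cells (median difference -0.0040 log2). Cox7a2 had 13.22, 13.18 and 13.11 log2 in Eomes+ cells, against 12.85, 12.97 and 13.06 in Eomes- cells (difference 0.21, SE 0.09, unadjusted p = 0.0638; 95% interval -0.016 to 0.44 log2). Its Eomes+ values lay above every Eomes- value. Cox4i1, the common isoform of the regulatory subunit 4, had 11.93, 11.93 and 11.83 log2 in Eomes+ cells, against 12.03, 12.20 and 12.02 in Eomes- cells (difference -0.18, SE 0.11, unadjusted p = 0.154). For this gene the Eomes+ values lay below every Eomes- value. Ndufa4, named for complex I and now known as a complex IV subunit, had 12.03, 12.23 and 12.24 log2 in Eomes+ cells, against 11.64, 11.97 and 12.14 in Eomes- cells (difference 0.25, SE 0.16, unadjusted p = 0.173). Cox5a had 12.11, 11.98 and 11.68 log2 in Eomes+ cells, against 12.06, 12.17 and 12.08 in Eomes- cells (difference -0.18, SE 0.14, unadjusted p = 0.249). Cox8a had 11.38, 11.34 and 11.35 log2 in Eomes+ cells, against 11.29, 11.65 and 11.69 in Eomes- cells (difference -0.19, SE 0.15, unadjusted p = 0.255). For these 3 genes the groups overlapped, as they did for Cox6a1, at 13.21, 12.94 and 12.82 log2 in Eomes+ cells, against 13.15, 13.17 and 13.06 in Eomes- cells (difference -0.14, SE 0.12, unadjusted p = 0.296).

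The isoforms of other tissues and conditions were dim. Cox4i2, an isoform known from lung and from low oxygen, had 6.49, 6.18 and 5.97 log2 in Eomes+ cells, against 6.65, 6.07 and 6.16 in Eomes- cells (difference -0.077, SE 0.25, unadjusted p = 0.771). The heart and muscle isoform gene Cox6a2 had 7.64, 7.57 and 7.14 log2 in Eomes+ cells, against 7.46, 7.45 and 7.32 in Eomes- cells (difference 0.045, SE 0.25, unadjusted p = 0.861). Its counterpart Cox7a1 had 6.26, 7.38 and 5.99 log2 in Eomes+ cells, against 6.00, 5.67 and 7.23 in Eomes- cells (difference 0.24, SE 0.53, unadjusted p = 0.662; 95% interval -1.03 to 1.52 log2), with 1 high array in each fraction. Cox8b, another muscle isoform gene, had 6.32, 7.15 and 5.87 log2 in Eomes+ cells, against 6.51, 6.40 and 6.22 in Eomes- cells (difference 0.068, SE 0.35, unadjusted p = 0.853). Ndufa4l2, known as a gene induced by low oxygen, had 6.72, 6.36 and 7.10 log2 in Eomes+ cells, against 6.61, 6.66 and 6.58 in Eomes- cells (difference 0.11, SE 0.25, unadjusted p = 0.685). The fractions overlapped for all of these isoforms. Cox6b2 and Cox7b2, known from testis, did not pass the filter: Cox6b2 was above it on 2 arrays, with 5.91, 5.70 and 5.44 log2 in Eomes+ cells against 5.70, 5.67 and 5.48 in Eomes- cells, and Cox7b2 on 0 arrays.

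Complex V, ATP synthase, had a median difference of -0.016 log2 over 17 genes, with 8 higher in Eomes+ cells, and the groups did not overlap for 4 of them (23.5%), 2 in each direction, where 7.71% of all genes tested did not overlap. Atp5b, the catalytic beta subunit of the F1 head, had 12.15, 12.26 and 12.38 log2 in Eomes+ cells, against 12.43, 12.50 and 12.56 in Eomes- cells (difference -0.23, SE 0.11, unadjusted p = 0.0723; 95% interval -0.50 to 0.028 log2). Atp5c1, the gamma subunit of the central stalk, had 12.40, 12.57 and 12.39 log2 in Eomes+ cells, against 12.65, 12.61 and 12.69 in Eomes- cells (difference -0.20, SE 0.10, unadjusted p = 0.0891; 95% interval -0.44 to 0.040 log2). All Eomes+ arrays were lower for both. Atp5d, the delta subunit of the same stalk, had 12.44, 12.58 and 12.37 log2 in Eomes+ cells, against 12.26, 12.34 and 12.22 in Eomes- cells (difference 0.19, SE 0.11, unadjusted p = 0.123). All Eomes+ arrays were higher for Atp5d, but its other passing probe set differed by -0.32 log2, and the mean over its probe sets was also below 0. Of the genes for the c ring, Atp5g2 had 10.66, 11.00 and 11.45 log2 in Eomes+ cells, against 11.00, 11.83 and 11.82 in Eomes- cells (difference -0.52, SE 0.30, unadjusted p = 0.135; 95% interval -1.25 to 0.21 log2), the lowest difference of the 90 genes. Replicate 1 was its lowest array in both fractions, and leaving it out gave a difference of -0.33 log2 on the Eomes+ side and -0.79 on the Eomes- side. Atp5l, a membrane subunit, had 11.52, 11.71 and 11.52 log2 in Eomes+ cells, against 11.54, 11.94 and 11.95 in Eomes- cells (difference -0.23, SE 0.16, unadjusted p = 0.197), and its groups overlapped.

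**Figure D3:**
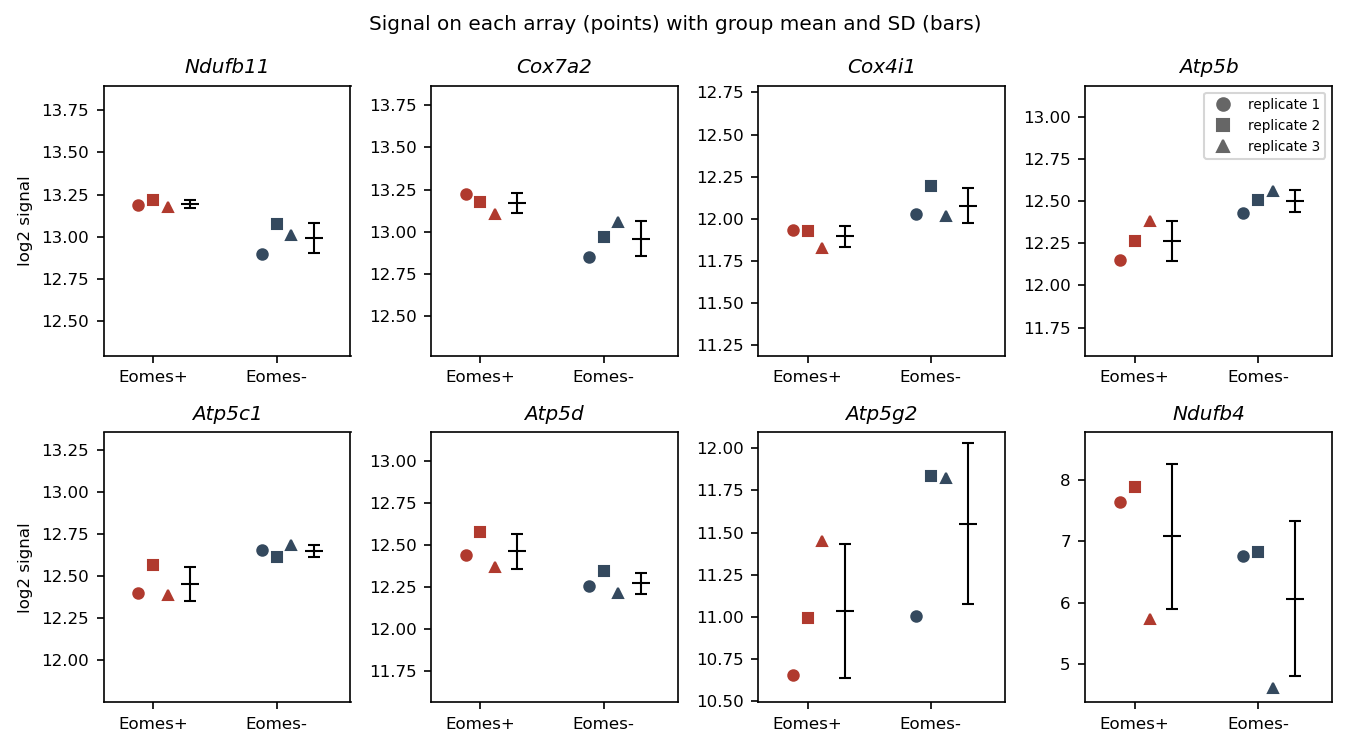
Log2 signal on each array (points) for 8 of the named respiratory chain genes, Eomes+ arrays left of Eomes- arrays, with the group mean and SD as bars (n = 3 each) and an axis of its own for each gene. Ndufb11 and Cox7a2 are higher on all 3 Eomes+ arrays, Atp5b and Atp5c1 are lower on all 3, and the low replicate 3 of Ndufb4 stands out in both fractions.

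Signals of respiratory chain genes also varied little among the arrays. The range over 6 arrays had a median of 0.484 log2, against 0.958 over all genes tested. The sets were not matched on brightness here: the median signal was 11.58 log2 for the 90 genes and 8.41 for all genes tested. The range was under 0.5 log2 for 54.4% of the 90 genes (15.2% of all genes) and over 1 log2 for 12.2% (47.7%). Ndufb4 had the largest range, 3.27 log2, and Atp5g3, another c-ring gene, the smallest, 0.116 log2. The median deviation of the 90 genes from their own mean was -0.03, 0.04 and -0.0032 log2 on Eomes+ arrays 1, 2 and 3, against -0.08, 0.05 and 0.06 on the Eomes- arrays. Eomes- replicate 1 was thus the lowest array, and for complex III with cytochrome c it stood at -0.20 log2. Eomes+ replicate 3, the Eomes+ array with the lowest T cell markers, was lowest for complex IV, at -0.16 log2. With a covariate for macrophage and tumour markers the median difference of the 90 genes was -0.0037 log2. At an unadjusted p under 0.05, 7 of the 90 genes (7.78%) passed, against 9.16% of all genes. After adjustment 0 of the 90 genes passed, where 8 of all 12571 genes tested did.

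**Figure D4:**
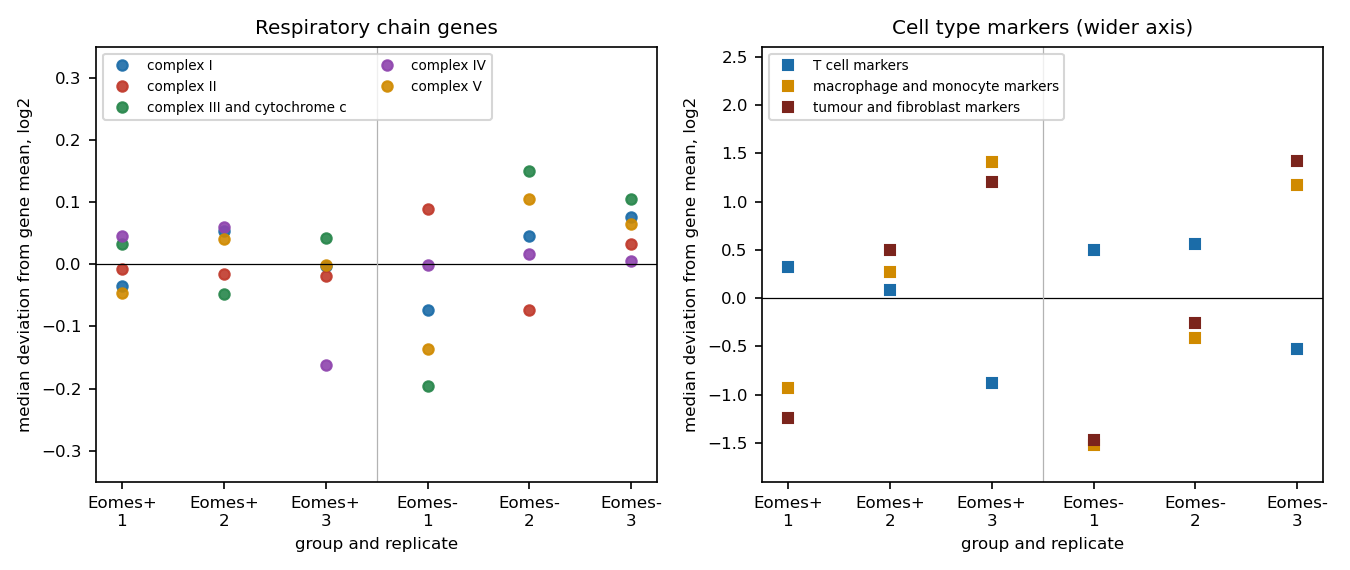
Median deviation from the gene mean over 6 arrays (log2) on each array, Eomes+ left of Eomes-, for the complexes and for the marker lists. Complexes stay within 0.20 log2 of 0, whereas the macrophage and the tumour and fibroblast markers differ by more than 2 log2 between replicates.

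Among other mitochondrial genes, too, none passed the adjusted test (limma adjusted p = 1.00 for each). Of 37 tested complex assembly factors 17 had a higher and 20 a lower mean in Eomes+ cells (median -0.0032 log2), and 0 passed an unadjusted p under 0.05. Sdhaf2, which helps attach the flavin of complex II, had 9.56, 9.60 and 9.55 log2 in Eomes+ cells, against 9.87, 9.99 and 9.81 in Eomes- cells (difference -0.32, SE 0.17, unadjusted p = 0.107), lower on every Eomes+ array. It was the only one of the 37 without overlap (2.7%, against 7.71% of all genes tested). Uqcc3, for complex III, and Tmem126b, for complex I, differed by -0.56 (SE 0.33) and -0.44 (SE 0.31). Without Eomes+ replicate 3 these differences were -0.30 for Uqcc3 and -0.29 for Tmem126b. Of 14 genes for maintenance and transcription of mitochondrial DNA 9 were higher (median 0.11 log2). Mterf1a, a transcription termination factor, differed by -1.21 (SE 0.53), Tfb2m, a transcription factor of the mitochondrial promoters, by 0.54 (SE 0.28) and Slirp, which stabilises mitochondrial mRNA, by 0.30 (SE 0.20). The groups overlapped for Mterf1a, whose difference was -0.79 without Eomes+ replicate 2 and -0.44 without both replicate 2 arrays. That of Tfb2m was 0.34 without Eomes- replicate 1. The mitochondrial DNA itself was represented by ND5, a complex I subunit, with 13.19, 12.66 and 12.60 log2 in Eomes+ cells, against 12.98, 12.70 and 12.67 in Eomes- cells (difference 0.033, SE 0.19, unadjusted p = 0.865).

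Among 14 tested regulators of mitochondrial biogenesis 8 were higher in Eomes+ cells (median 0.043 log2). At an unadjusted p under 0.05, 1 of the 14 passed, beside 3.25% of all genes tested, and a list this short gives no useful share. The gene that passed was Esrra, an orphan nuclear receptor known to act on respiratory genes, with 7.76, 7.70 and 7.90 log2 in Eomes+ cells, against 7.38, 7.21 and 6.98 in Eomes- cells (difference 0.60, SE 0.24, unadjusted p = 0.0406; limma adjusted p = 1.00). Every Eomes+ array was higher, and Esrra was the only one of the 14 without overlap (7.14%, against 7.71% of all genes tested). Of the factors whose motifs were counted above, the genes differed by -0.24 (SE 0.22) for Nrf1, -0.22 (SE 0.19) and 0.034 (SE 0.38) for the GABP subunit genes Gabpa and Gabpb1, and 0.14 (SE 0.20) for Yy1, with overlapping groups for each. Gabpb1 and Yy1 were added after their values were seen. The coactivator gene Ppargc1a did not pass the filter.

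Of 20 tested genes of pyruvate dehydrogenase and the citrate cycle, which supply NADH and succinate, 13 were higher (median 0.048 log2). The groups did not overlap for 4 of the 20 (20%, against 7.71% of all genes tested). Of these, 1 was higher in Eomes+ cells, the pyruvate dehydrogenase kinase gene Pdk1, and 3 were lower, Ogdh, Dld and Pdhb. Ogdh, of the oxoglutarate dehydrogenase complex, differed by -0.57 (SE 0.24, unadjusted p = 0.0535), Idh2, the NADP-dependent isocitrate dehydrogenase, by 0.62 (SE 0.38) and Dld, a subunit shared by both dehydrogenase complexes, by -0.32 (SE 0.21). The value of Idh2 rests on Eomes+ replicate 3, without which it was 0.24, and it was 0.96 without Eomes+ replicate 1. Of 18 tested genes for ubiquinone synthesis and other electron donors 7 were higher and 11 lower (median -0.14 log2). At an unadjusted p under 0.05, 1 of the 18 passed, beside 3.25% of all genes tested, and this list too is short for a share. Gpd2, the glycerol-3-phosphate dehydrogenase that brings electrons from cytosolic NADH to ubiquinone, had 10.49, 10.91 and 10.66 log2 in Eomes+ cells, against 11.57, 11.61 and 11.06 in Eomes- cells (difference -0.72, SE 0.21, unadjusted p = 0.0119; 95% interval -1.22 to -0.22 log2; limma adjusted p = 1.00). All Eomes+ arrays were lower. Etfb, of the electron transfer flavoprotein that serves fatty acid oxidation, differed by -0.46 (SE 0.21) and Coq9, for ubiquinone synthesis, by -0.49 (SE 0.23). The groups did not overlap for 3 of the 18 (16.7%, against 7.71% of all genes tested). These were Gpd2, Etfb and Coq9, all lower in Eomes+ cells, where 4.66% of all genes tested were lower without overlap. Without Eomes+ replicate 1 the difference of Coq9 was -0.32. Of 14 tested inner membrane carrier and porin genes 6 were higher (median -0.029 log2), and the groups overlapped for all. Chchd3, of the cristae junction complex, differed by -0.47 (SE 0.33), the porin gene Vdac1 by 0.15 (SE 0.11) and the oxoglutarate carrier gene Slc25a11 by -0.24 (SE 0.19). Without Eomes+ replicate 3 the difference of Chchd3 was -0.14, and without Eomes+ replicate 1 it was -0.79.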

How the data were processed

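The deposited values are log2 signals of 45101 probe sets on 6 arrays, made by the authors. The submitters' processing notes name Transcriptome Analysis Console and MAS5. The labels and files used here do not state how probes were summarised and scaled. The number of arrays limits the precision. From these values, 64 control probe sets were left out, and probe sets above their array's 40th percentile on at least 3 arrays were kept (27766). Genes came from the platform annotation: 34945 probe sets had 1 symbol, 932 several and 9160 none. The brightest probe set, by the mean over 6 arrays, stood for each of 12571 genes. Differences were tested with limma 3.58.1 in R 4.3.3 (two-sided, lmFit and trended eBayes) and Benjamini-Hochberg adjusted over these genes. The procedure was first run on simulated data with independent noise for each gene and array. That simulation held no spread shared by same-numbered arrays, so it does not show how the test behaves with such spread. Of the 92 genes, 48 had several passing probe sets, which gave the same direction in 21, and 21 chosen probe sets have a suffix (_x_at or _s_at) that marks probes shared between transcripts.

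The genes and lists were chosen with earlier results of these data known. The text names Eomes, all complex II genes, Cyc1, Cycs, the genes of smallest unadjusted p in the other complexes (6 in complex I, 3 in III, 5 in IV and 5 in V), a set of complex IV isoforms, and up to 3 genes of each other mitochondrial list. Alternatives varied the filter, scaling, probe set choice, variance model, array weights, a marker covariate, a replicate block and the arrays included. Motifs were searched in RefSeq promoter windows.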

Additional observations from a re-analysis of the deposited data

How the results depend on the processing

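The count of respiratory chain genes at adjusted p under 0.05 was 0 under all 20 alternatives. Over all genes tested it was 253 of 12571 with array weights, 17 with the replicate block, 8 with the marker covariate and 0 under the others. With array weights the smallest limma adjusted p of a respiratory chain gene was 0.0506. The median difference of the 90 genes stayed between -0.05 and 0.02 log2. The count at an unadjusted p under 0.05, 0 in the reported fit, was 2 with no filter (2.17%, against 3.19% of all genes tested), 1 with the filter at the 60th percentile (1.22%, against 3.04%), 2 after quantile normalization (2.22%, against 3.07%), 1 without x_at and s_at probe sets (1.11%, against 3.29%), 7 with the marker covariate (7.78%, against 9.16%) and 21 with array weights (23.3%, against 26.8%). With the replicate block it was 9 (10%, against 10.2%). Same-numbered arrays correlated at 0.595, 0.0989 and 0.628 in their deviations from the group means. Eomes+ replicate 1 with Eomes- replicate 3 gave -0.619, and Eomes+ replicate 3 with Eomes- replicate 1 gave -0.561. Within a group the deviations of each gene sum to 0, so positive values here force negative ones and are not separate results. Eomes- replicate 2 was closer to Eomes+ replicate 1 (0.302). The labels state no pairing, so the reported fit has no replicate block. Its SEs, intervals and counts include any spread that same-numbered arrays share. With the block the SE of Eomes was 0.25 log2. Leaving out arrays gave 0 to 4 genes at an unadjusted p under 0.05, where 0.947% to 6.48% of all genes tested passed. The 4 genes came without both replicate 3 arrays (4.44%, against 6.48%). Without Eomes- replicate 1 the count was 2 (2.22%, against 2.17%). Fits without arrays left 11 to 39 genes without overlap. The cause of these changes was not tested, beyond that fewer arrays separate more easily.

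Leaving out arrays moved the median difference over -0.051 to 0.078 log2 for complex I, -0.055 to 0.053 for complex II, -0.11 to 0.081 for complex III, -0.040 to 0.058 for complex IV, -0.12 to 0.016 for complex V, -0.022 to 0.22 for mitochondrial DNA genes, -0.030 to 0.13 for biogenesis regulators, -0.072 to 0.087 for assembly factors, -0.11 to 0.081 for carriers and porins, -0.24 to -0.023 for quinone synthesis and electron donors and 0.011 to 0.13 for the citrate cycle. Single genes near 0 changed sign. With the mean of probe sets the difference was 0.052 for Sdha, -0.023 for Sdhd, -0.068 for Atp5d and 0.094 for Gabpa. Without x_at and s_at probe sets it was 0.18 for Sdha, -0.058 for Sdhd, 0.051 for Uqcrq and -0.21 for Vdac1. Quantile normalization gave 0.0018 for Sdhc, and array weights gave 0.059 for Sdhc, -0.081 for Cycs, 0.064 for Cox4i2, -0.17 for Ndufa4l2, 0.0042 for Nrf1 and -0.019 for ND5. Over the fits without an array, the difference ranged over -0.18 to 0.16 for Sdhc, -0.089 to 0.14 for Sdhd, -0.027 to 0.29 for Uqcrc2, -0.46 to 0.032 for Uqcrq, -0.47 to 0.021 for Uqcr11, -0.068 to 0.13 for Cycs, -0.048 to 0.20 for Cox6a2, -0.49 to 0.98 for Cox7a1, -0.28 to 0.36 for Cox8b, -0.22 to 0.10 for Cox4i2, -0.095 to 0.31 for Ndufa4l2 and -0.15 to 0.14 for ND5. Of 1015 values of single genes under the alternatives, 965 kept their direction and side of the threshold. Eomes passed with the replicate block (3.15, adjusted p = 0.0167), array weights (2.93, adjusted p = 0.0273) and the marker covariate (3.38, adjusted p = 0.0263), all from limma. With limma array weights Mterf1a (-2.37, adjusted p = 0.0428) and Gpd2 (-0.74, adjusted p = 0.0461) also passed, whereas leaving out arrays gave -1.63 to -0.44 for Mterf1a and -0.90 to -0.55 for Gpd2, neither past the adjusted test.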
